A study of Mus musculus with 28 samples.

Results

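The comparison described here asks of each gene whether CA3 stands apart from its neighbouring subregions by the same amount in its dendritic layer as in its cell body layer. For each mouse, the CA3 dendritic value minus the mean of the CA1, CA2 and dentate gyrus (DG) dendritic values was set against the same difference in the cell body layers. A positive value of this compartment difference means that CA3 stood relatively higher in its dendritic layer, and a negative value that it stood relatively lower there. The same number says how much more a gene's RNA is shifted towards the dendritic layer in CA3 than in the mean of the other subregions. All 24 libraries that have a column in the deposited table entered, out of 28 samples in the series. Of 49341 genes in the table, 24911 were tested, namely those with a normalized value of at least 10 in at least 3 libraries.

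The libraries are RNA-seq of laser-captured hippocampal layers from 3 untreated adult male mice, numbered 492, 496 and 502, aged 6 to 8 weeks and from separate litters. All mice carried the Amigo2-EGFP reporter on a C57BL/6J background, which all groups therefore share, and no group had a treatment or a mutation that another lacked. The 8 groups were the cell body layers of CA1, CA2, CA3 and DG and the dendritic layers of the same subregions, each with 3 libraries, 1 per mouse. Cell body layers were the stratum pyramidale or, in DG, the granule cell layer. Dendritic layers were the stratum radiatum or, in DG, the molecular layer. A captured dendritic layer holds not only dendrites but also glia, vessels, interneurons and axons, and "dendrites" here means that layer. In such bulk samples fewer cells of a type and less RNA per cell cannot be told apart. Cell body libraries were made from 5 ng of RNA and dendritic ones from 1 ng, so input and compartment cannot be told apart. Library preparation and sequencing went mouse by mouse, so each value given per mouse is a value within 1 batch.

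Pyramidal neurons of CA3 receive mossy fibres from the dentate gyrus close to the cell body and connections from other CA3 neurons in the stratum radiatum, and they send the Schaffer collaterals to CA1. Most of a neuron's mRNA stays in the cell body, and a selected set of transcripts is carried into dendrites, where local translation serves synaptic change. A transcript of the CA3 neuron itself can therefore lose or keep its CA3 excess along the dendrite, while RNA of interneurons, glia and vessels adds to the dendritic layer independently of that.

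Normalized totals ranged from 29.2 to 98.7 M per library, and transcripts of the mitochondrial genome made up 4.21 to 9.08% of a cell body library and 29.5 to 46.9% of a dendritic one. The CA1 dendritic libraries of mice 492 and 496 stood apart, with totals of 98.7 and 82.3 M and only 15947 and 16656 genes at 10 or more, and are called the high-total pair below. Totals here are sums of normalized values and do not measure sequencing depth. The CA2 and DG dendritic groups have a repeat library for mice 492 and 502 with no column of its own, and whether the 4 table columns concerned hold the original library, the repeat or both could not be learned from the labels. Results are given without these libraries where they matter. For some of the repeats the title and the animal id name different mice, so a column that holds such a repeat may belong to the other mouse. Of 8 CA3 pyramidal markers, 6 were higher in CA3 cell bodies than in the other cell bodies and 3 were higher in CA3 dendrites, none lower in either. Over all genes tested 4.91% and 1.28% were higher. The list was chosen with earlier results of these data known, so it is no independent check of the labels.

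The CA3 difference depended on the compartment in 430 genes, 1.73% of the genes tested (limma with mouse as a block, two-sided, Benjamini-Hochberg adjusted p below 0.05). Of these, 186 (0.747%) were higher and 244 (0.979%) were lower in the dendritic layer relative to the cell bodies. An unadjusted limma p under 0.05 was found for 2855 of the 24911 genes tested. All 430 had the same sign in all 3 mice, and 366 had the same sign against CA1, CA2 and DG taken singly. The calls were made from these same libraries, so neither count is separate support. The median change was 2.10 on the log2 scale among the genes called higher and -1.59 among those called lower, against a median of -0.08 over all genes tested. Scaling moved the balance between the directions: genes called higher were 43.3% of the calls as reported, 55.2% after quantile normalization, 73.6% after scaling to library totals and 65.8% after scaling to totals outside the mitochondrial genome. These scalings moved the median of all genes by 0.10, 0.29 and 0.21. Leaving out 1 mouse gave 115 calls without mouse 492, 152 without mouse 496 and 134 without mouse 502, and leaving out 1 CA3 cell body library gave 252 without that of mouse 492 and 255 without that of mouse 502. Of 91 genes picked by the naming rule 85 were called, and 24 of these were called under each of 39 alternative settings. They are Adarb2, Bcl11b, Bcl6, C1ql3, Cacng5, Chst2, Col25a1, Cpe, Cygb, Doc2b, Ephb1, Fat4, Fbn1, Fibcd1, Fxyd7, Gad1, Kcnh7, Nectin3, Penk, Prkcd, Slc1a2, Spon1, Trps1 and Zmat4.

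For most of these genes the estimate of the CA3 difference was larger in size in the cell body layer than in the dendritic layer. In CA3 cell bodies 1753 genes (7.04%) differed from the other cell bodies, 1224 (4.91%) higher and 529 (2.12%) lower. In CA3 dendrites 537 (2.16%) differed from the other dendrites, 320 (1.28%) higher and 217 (0.871%) lower. Of the 186 genes whose compartment difference was positive, 183 were below the other subregions in CA3 cell bodies by their estimate. Of the 244 with a negative one, 242 were above them. The estimate was larger in cell bodies for 370 of the 430 genes and larger in dendrites for 60.

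By which of its CA3 differences was itself called, 322 of the 430 genes had a called difference in cell bodies alone, 136 of them with a positive and 186 with a negative compartment difference. Another 35 shrank, meaning that CA3 differed the same way in both layers but less in dendrites. A further 34 had a called difference in dendrites alone, 2 grew, and in 30 neither layer alone passed the test. The remaining 7 turned from one side of the mean of the other subregions to the opposite side. By the sign and size of the estimates alone, 244 turned, 181 shrank and 5 grew. The number that turned was 31 after quantile normalization, 21 after scaling to totals, 25 with totals outside the mitochondrial genome, 19 without the high-total pair of CA1 dendritic libraries, and 2 without the 4 libraries that have a repeat.

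**Figure D1:**
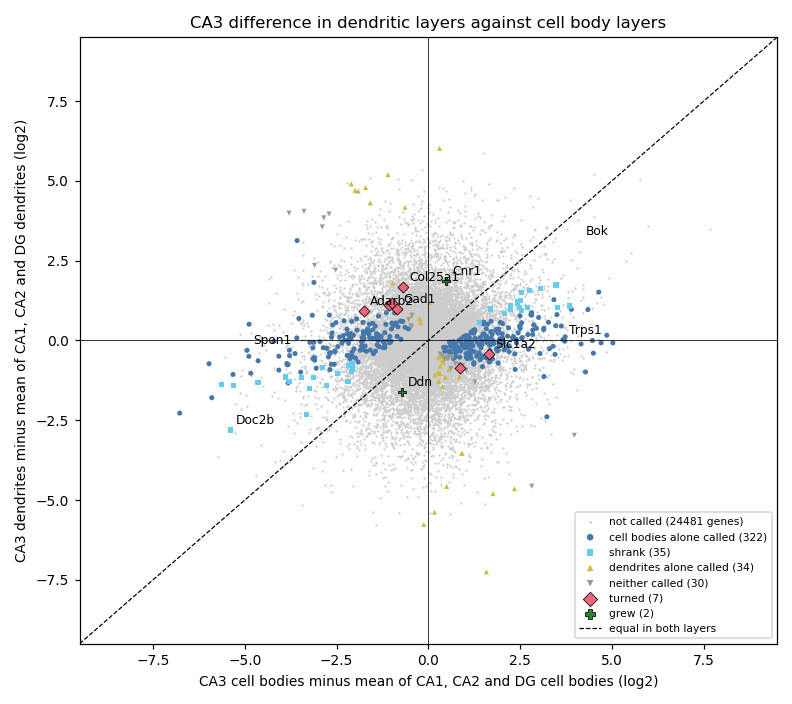
CA3 minus the mean of CA1, CA2 and DG in cell bodies (x axis, log2) against the same difference in dendrites (y axis, log2), 1 point per gene. Coloured points are the 430 genes whose CA3 difference depended on the compartment, by class, grey points are the other genes tested, and on the diagonal the CA3 difference is the same in both layers. Most coloured points lie far out on the x axis and near 0 on the y axis, and the 7 genes that turned lie in the upper left and lower right quadrants.

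Among all 1753 genes with a called CA3 difference in cell bodies, 1372 (78.3%) kept its sign in dendrites, 76 had a larger estimate there, and the median ratio of the dendritic to the cell body difference was 0.298. Over all genes tested the 2 signs were the same in 55.5%. The genes were picked on the cell body estimate, so a smaller dendritic estimate is partly built in. The same count gave a median ratio of 0.194 for CA1 (1490 genes), 0.372 for DG (4291 genes) and -0.00426 for CA2 (2235 genes). For the 537 genes called in CA3 dendrites, 434 (80.8%) had the same sign in cell bodies. The corresponding compartment difference was called in 1586 genes for CA1 (6.37%), 1786 for CA2 (7.17%) and 1069 for DG (4.29%), which share libraries with the CA3 comparison. Set against 1 subregion at a time, the CA3 compartment difference was called in 1031 genes against CA1 (4.14%), in 348 against CA2 (1.4%) and in 994 against DG (3.99%).

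The 7 genes that turned did so relative to the mean of the other subregions, and not all did so against each subregion singly. Gad1, Col25a1, Adarb2, Cygb and AI504432 stood low in CA3 cell bodies and high in CA3 dendrites. Slc1a2 and Dtnbp1 did the opposite. All 7 kept opposite signs in the 2 layers under each of the 39 alternatives. Gad1 met all the tests of a turn under 38 of them, Cygb under 34, Col25a1 under 33, AI504432 under 31, Dtnbp1 under 28 and Adarb2 and Slc1a2 under 26 each. With the contrast fitted per mouse, the dendritic difference stayed called for Col25a1 alone (limma adjusted p = 0.0427). Its adjusted p was 0.05003 for Gad1, 0.111 for Slc1a2, 0.155 for Cygb, 0.216 for AI504432, 0.292 for Adarb2 and 0.331 for Dtnbp1. With library weights it was not called for Slc1a2 (0.106), Adarb2 (0.191), Dtnbp1 (0.137) or AI504432 (0.0559).

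Gad1 (chr2:70561303-70602014) encodes the larger glutamate decarboxylase, which makes GABA in inhibitory neurons. Its log2 value in CA3 cell bodies was 11.60, 11.58 and 11.50 in mice 492, 496 and 502, while the other 9 cell body libraries had a lowest value of 11.70, a median of 12.42 and a highest of 12.93. In CA3 dendrites it was 14.69, 14.59 and 14.36, against 12.82, 13.67 and 14.38 as lowest, median and highest of the other 9 dendritic libraries. CA3 was thus below every other cell body library and at or near the top of the dendritic ones, where only the CA2 library of mouse 492 reached its range. The CA3 difference was -0.85 ± 0.15 (SE, log2) in cell bodies and 0.98 ± 0.15 in dendrites, with limma adjusted p of 0.000272 and 0.000265. The compartment difference was 1.83 ± 0.21 (adjusted p = 9.08e-06), with 1.68, 1.74 and 2.07 in the 3 mice. It was positive against each subregion, 1.45 against CA1, 1.26 against CA2 and 2.78 against DG.

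Col25a1 (chr3:130180358-130599884) encodes a brain-enriched membrane collagen. Its values were 10.43, 10.19 and 10.26 in CA3 cell bodies, against 10.66, 10.85 and 11.37 as lowest, median and highest of the other 9. In CA3 dendrites they were 13.03, 12.56 and 12.57, against 9.28, 11.78 and 12.36. The groups did not overlap in either compartment: CA3 was below all other cell body libraries and above all other dendritic ones. The difference was -0.68 ± 0.17 in cell bodies (adjusted p = 0.00928) and 1.68 ± 0.17 in dendrites (adjusted p = 7.62e-07), and the compartment difference was 2.36 ± 0.23 (adjusted p = 1.65e-06). Against DG it came to 4.06, against CA1 to 1.99 and against CA2 to 1.03.

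Adarb2 (chr13:8202526-8768762), an RNA-binding protein of the adenosine deaminase family that marks a large class of interneurons, read 7.91, 8.21 and 7.58 in CA3 cell bodies against 7.46, 9.38 and 11.39 for the other 9. Its CA3 dendritic values were 12.39, 12.43 and 11.95 against 9.77, 11.68 and 12.41. Both ranges overlapped those of the other subregions, since CA1 was as low in cell bodies and CA2 nearly as high in dendrites. The differences of -1.75 and 0.91 passed the test (adjusted p = 6.32e-06 and 0.0304), and the compartment difference was 2.66 ± 0.32 (adjusted p = 1.82e-05), largest against DG at 5.12. Cygb (chr11:116645595-116654504), the globin cytoglobin, had a compartment difference of 2.15 ± 0.30 (adjusted p = 0.000119), from -0.98 in cell bodies and 1.16 in dendrites. AI504432 (chr3:107039504-107054322), whose name falls outside the naming rule and which is given to complete the class, had 2.17 ± 0.34 (adjusted p = 0.000543), from -1.06 and 1.11. For Adarb2, Cygb and AI504432 alike, most of the compartment difference came from DG, against which it was 5.12, 3.97 and 4.51. Against CA1 and CA2 it was between 0.69 and 1.75. In cell bodies the group mean of AI504432 was 8.24 in CA3 and 7.94 in CA1, and that of Cygb 9.61 and 9.70.

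Slc1a2 (chr2:102658239-102790784) encodes the glutamate transporter GLT-1, which clears glutamate mainly from astrocytes and whose mRNA is also known from CA3 pyramidal neurons. Its CA3 cell body values were 17.11, 17.06 and 17.08, against 15.20, 15.33 and 15.79 for the other 9. Its CA3 dendritic values were 18.89, 18.98 and 18.48, against 18.79, 19.14 and 19.59. CA3 stood above every other cell body library by over 1 log2 unit, and in dendrites it lay at the lower end of an overlapping range. The difference was 1.66 ± 0.10 in cell bodies (adjusted p = 3.78e-11) and -0.42 ± 0.10 in dendrites (adjusted p = 0.0243). The compartment difference of -2.08 ± 0.14 (adjusted p = 2.49e-09) was -2.12, -1.91 and -2.21 in the 3 mice, and -2.27, -1.51 and -2.45 against CA1, CA2 and DG. Dtnbp1 (chr13:44922079-45002096), the gene of dysbindin, a vesicle trafficking protein, changed by -1.73 ± 0.30 (limma adjusted p = 0.00132), from 0.86 in cell bodies to -0.87 in dendrites. Its call was lost without mouse 492 (-1.47, limma adjusted p = 0.115) and without mouse 502 (-1.80, limma adjusted p = 0.0678). In cell bodies its group means were 10.93 in CA3, 11.11 in CA1, 10.35 in CA2 and 8.73 in DG, so CA3 was not above CA1. In dendrites they were 9.37, 11.47, 9.655 and 9.59 in the same order.

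Summed markers of interneurons and astrocytes were set beside Gad1 and Slc1a2. Without these 2 genes both sums lay inside the range of the other libraries in CA3 cell bodies. The summed level of the 14 interneuron markers, in normalized values, was 98427 to 130938 in CA3 dendrites against 42878 to 103722 in the other dendrites, and 42637 to 51851 in CA3 cell bodies against 17897 to 61393 in the other cell bodies. Without Gad1 the ranges were 77410 to 106352, 35628 to 82417, 39738 to 48757 and 10679 to 55802, in the same order. The 14 astrocyte markers summed to 163761 to 167028 in CA3 cell bodies against 53665 to 90109 elsewhere, and without Slc1a2 the other 13 summed to 25187 to 27843 against 16150 to 36864. In dendrites the same 13 summed to 172817 to 228341 in CA3, below all other dendritic libraries at 231189 to 342159. Without Slc1a2, CA3 was thus inside the range of the others in cell bodies and below it in dendrites, and no member of either list was at 0 in a CA3 library. The part of interneuron RNA in the result for Gad1 and Adarb2, and of astrocyte RNA in the dendritic value of Slc1a2, was not tested.

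**Figure D2:**
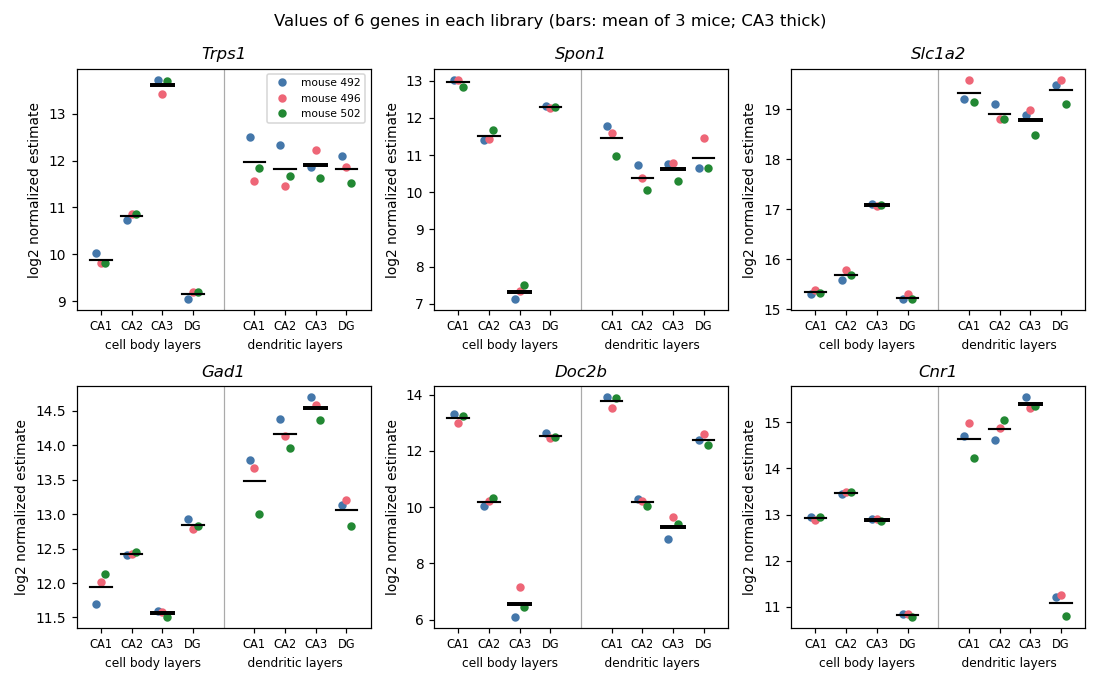
Normalized log2 value of 6 genes in each of the 24 libraries, by group, with cell body and dendritic layers of CA1, CA2, CA3 and DG along the x axis. Each point is 1 mouse and each bar the mean of 3 mice. Trps1 and Spon1 separate CA3 in cell bodies but not in dendrites, Slc1a2 and Gad1 change sides, Doc2b is lowest in CA3 in both layers, and Cnr1 is highest in CA3 in dendrites alone.

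A difference that grew was found in 2 genes. Cnr1 (chr4:33923171-33948831), the cannabinoid receptor of axon terminals that is abundant in interneurons containing cholecystokinin, read 12.90, 12.91 and 12.87 in CA3 cell bodies against 10.77, 12.95 and 13.49 for the other 9. In CA3 dendrites it read 15.54, 15.31 and 15.35, above all 9 others at 10.81, 14.62 and 15.05. The CA3 difference went from 0.48 ± 0.14 in cell bodies (adjusted p = 0.0325) to 1.87 ± 0.14 in dendrites (adjusted p = 8.86e-09), and the compartment difference was 1.39 ± 0.20 (adjusted p = 0.000150). In cell bodies the positive value came from DG, where Cnr1 was low, since CA2 stood above CA3. Without mouse 492 the compartment difference of Cnr1 was 1.31 and no longer called (adjusted p = 0.0579).

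Ddn (chr15:98803782-98807925) encodes dendrin, a postsynaptic protein whose mRNA is a textbook example of dendritic transport. Its CA3 cell body values of 14.24, 14.17 and 14.30 were below all 9 others (14.69, 15.01 and 15.33), and its CA3 dendritic values of 15.88, 15.64 and 15.55 were below all 9 others too (16.22, 17.70 and 18.16). The deficit was -0.73 ± 0.11 in cell bodies (adjusted p = 4.68e-05) and -1.62 ± 0.11 in dendrites (adjusted p = 1.82e-09), a compartment difference of -0.89 ± 0.15. CA3 shared the small rise from cell bodies to dendrites with CA2, against which the compartment difference was 0.15, whereas it was -1.39 against CA1 and -1.44 against DG. The call (adjusted p = 0.00132) was lost after quantile normalization, after scaling to totals, without the trended and robust estimate, and without mouse 492 or 496. The estimate was -0.25 after quantile normalization and -0.58 after scaling to totals, and ran from -1.01 to -0.81 with 1 sample or mouse left out.

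In the class with a called difference in cell bodies alone, a CA3 excess or deficit of several log2 units had no called counterpart in dendrites. Spon1 (chr7:113765998-114043375), the secreted axon guidance protein F-spondin, read 7.11, 7.35 and 7.49 in CA3 cell bodies against 11.41, 12.30 and 13.03 for the other 9. In CA3 dendrites it read 10.77, 10.78 and 10.29, within the other dendrites at 10.05, 10.74 and 11.78. The CA3 difference was thus -4.94 ± 0.20 in cell bodies and -0.31 ± 0.20 in dendrites (adjusted p = 0.520), a compartment difference of 4.63 ± 0.28 (adjusted p = 4.04e-10). Trps1 (chr15:50654757-50890631), a transcription factor, was the reverse case. It read 13.73, 13.43 and 13.69 in CA3 cell bodies, above all others at 9.04, 9.82 and 10.86, and 11.86, 12.22 and 11.62 in CA3 dendrites against 11.46, 11.84 and 12.51. Its CA3 excess of 3.67 ± 0.19 in cell bodies was 0.03 ± 0.19 in dendrites, a compartment difference of -3.64 ± 0.27 (adjusted p = 1.02e-08). Both genes had the same sign against CA1, CA2 and DG, from 4.41 to 4.81 for Spon1 and from -2.71 to -4.40 for Trps1.

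Other genes were low in CA3 cell bodies with no called difference in dendrites. Bcl6, a transcriptional repressor, had a compartment difference of 3.58 ± 0.29 (adjusted p = 5.18e-08), with CA3 values of 8.37, 8.61 and 8.65 against 12.32 to 13.00 in other cell bodies and 10.94, 10.37 and 10.14 against 10.35 to 11.54 in other dendrites. Penk, the precursor of the enkephalins, had 4.22 ± 0.66 (adjusted p = 0.000479), and its CA3 cell body values of 7.25, 7.19 and 5.57 lay below 8.53 to 11.77 elsewhere. Fbn1, which encodes the microfibril protein fibrillin, had 4.26 ± 0.71 (adjusted p = 0.000980). Its per mouse values ranged widely, from 2.26 in mouse 502 to 7.41 in mouse 492, where its CA3 cell body value was 1.96. Kcnh7, an ERG-type potassium channel, had 3.22 ± 0.36 and Zmat4, a zinc finger gene, 3.49 ± 0.38 (adjusted p = 7.82e-06 and 6.81e-06). Htr1b, a serotonin receptor known for its place on axon terminals, had 4.18 ± 0.82 (adjusted p = 0.00553) but lost its call without any 1 of the 3 mice. Rph3al, a Rab effector, was listed at 0 in all 3 CA3 cell body libraries and read 4.58 to 8.05 in the other 9, so that no fold is given. It was low in CA3 dendrites too, at 5.98, 3.59 and 5.67 against 4.64 to 8.14, a difference of -2.28 that did not pass (adjusted p = 0.0825).

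Other genes were high in CA3 cell bodies with no called difference in dendrites. Prkcd, protein kinase C delta, had the compartment difference of greatest size among the named genes called under all 39 alternatives, -4.70 ± 0.60 (adjusted p = 4.31e-05). It read 12.75, 12.92 and 12.78 in CA3 cell bodies against 6.36 to 10.88 elsewhere, and 10.85, 11.36 and 10.20 in CA3 dendrites against 9.34 to 12.70. Ephb1, a receptor for B-type ephrins, had -3.55 ± 0.29 (adjusted p = 5.18e-08), from 3.30 in cell bodies to -0.25 in dendrites. Its CA3 cell body values of 11.998, 11.71 and 11.94 lay above 6.53 to 9.99 elsewhere, and its dendritic values of 10.78, 11.03 and 10.43 within 10.56 to 11.50 except for mouse 502. Chst2, a sulfotransferase of carbohydrate chains, had -2.08 ± 0.18, and Cpe, the carboxypeptidase that trims peptide hormones, -1.77 ± 0.19 (adjusted p = 1.60e-07 and 5.96e-06). For Chst2 and Cpe the difference came from CA1 and DG, as it was -0.08 and -0.12 against CA2. Mndal and Ifi203, which belong to a cluster of close interferon-induced copies, had -5.27 ± 1.34 and -3.61 ± 0.72, and Plac9b, which has a near-identical copy, -5.62 ± 1.38. Reads of these genes may have been split between copies, so their values are uncertain. Mndal lost its call under 22 of the 39 alternatives, Plac9b under 10 and Ifi203 without any 1 of the mice.

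The bases just before the start of Kcnh7, Cacng5, Ephb1 and Chst2 are shown as examples from both directions of the class called in cell bodies alone. Of the 24 named genes called under all alternatives, 16 have a window in the RefSeq table, and in 5 the window ends where the RefSeq gene begins. These are the 4 of those 5 that hold no annotated untranslated region on their strand. Each sequence is 250 bases on the minus strand of build GRCm38.p6, 5′ to 3′. They lie at chr2:63184288-63184537 for Kcnh7, chr11:107915056-107915305 for Cacng5, chr9:102354694-102354943 for Ephb1 and chr9:95407271-95407520 for Chst2. Capitals mark matches, on either strand, to a GC box (GGGCGG).
Kcnh7 upstream window: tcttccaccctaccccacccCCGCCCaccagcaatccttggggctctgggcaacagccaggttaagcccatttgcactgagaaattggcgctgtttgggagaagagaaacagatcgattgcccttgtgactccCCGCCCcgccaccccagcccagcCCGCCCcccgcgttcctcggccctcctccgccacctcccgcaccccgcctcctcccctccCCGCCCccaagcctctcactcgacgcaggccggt
Cacng5 upstream window: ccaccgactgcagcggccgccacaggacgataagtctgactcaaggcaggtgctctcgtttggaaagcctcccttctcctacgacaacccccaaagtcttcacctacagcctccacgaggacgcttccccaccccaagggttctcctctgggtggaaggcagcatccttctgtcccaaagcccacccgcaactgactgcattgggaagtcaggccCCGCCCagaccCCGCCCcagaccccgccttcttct
Ephb1 upstream window: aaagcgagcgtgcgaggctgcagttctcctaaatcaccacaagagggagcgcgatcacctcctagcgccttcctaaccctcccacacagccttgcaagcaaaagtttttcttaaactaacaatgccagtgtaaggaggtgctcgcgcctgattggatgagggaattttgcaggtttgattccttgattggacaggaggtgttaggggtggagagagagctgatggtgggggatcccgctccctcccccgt
Chst2 upstream window: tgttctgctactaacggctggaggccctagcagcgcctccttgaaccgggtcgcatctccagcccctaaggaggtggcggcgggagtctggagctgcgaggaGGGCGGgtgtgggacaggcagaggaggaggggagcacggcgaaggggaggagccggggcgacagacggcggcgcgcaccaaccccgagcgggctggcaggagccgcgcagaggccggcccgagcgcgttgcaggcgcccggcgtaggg
A GC box was found in 32.7% of 32851 windows of the same length before an annotated start. Kcnh7 held 4, Cacng5 held 2, Chst2 held 1 and Ephb1 held none. Matches to a TATA box (TATAAA), found in 12.4% of windows, to the E-box CAGCTG, found in 13.0%, and to TGACGTCA, found in 1.55%, were absent from these 4 windows. Their GC content was 67.6% for Kcnh7, 62% for Cacng5, 54% for Ephb1 and 72.8% for Chst2, against a median of 52.4% over all windows. Cacng5, an auxiliary subunit of AMPA receptors, is given again among the CA2 markers.

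Among the 271 genes whose CA3 difference was called in both layers, those that also had a called compartment difference were the 35 that shrank, the 2 that grew and the 7 that turned. A called compartment difference selects for unequal layers, so these counts do not describe all 271. Doc2b, a calcium sensor of vesicle release, was lowest in CA3 in both layers: 6.08, 7.17 and 6.45 in cell bodies against 10.03 to 13.31, and 8.88, 9.64 and 9.41 in dendrites against 10.04 to 13.90. The CA3 difference was -5.40 ± 0.20 in cell bodies and -2.80 ± 0.20 in dendrites, a compartment difference of 2.59 ± 0.28 (adjusted p = 6.81e-06). C1ql3, a secreted synaptic organizer of the C1q family, went from -5.64 ± 0.35 to -1.37 ± 0.35 (4.27 ± 0.50, adjusted p = 1.44e-05). Bcl11b, a transcription factor also called Ctip2, went from -3.23 to -1.51, and Fat4, an atypical cadherin, from -3.90 to -1.14. In all 4, CA3 was below the mean of the other subregions in both layers. On the other side, Fxyd7, a regulator of the sodium pump, fell from an excess of 3.86 ± 0.26 to 1.08 ± 0.26 (-2.78 ± 0.36, adjusted p = 5.71e-05). Rph3a, a Rab3 effector of synaptic vesicles, kept the largest part of its CA3 excess among the examples here, 2.76 ± 0.14 in cell bodies and 1.58 ± 0.14 in dendrites, and was above all 9 others in both. Its compartment difference of -1.18 ± 0.19 (adjusted p = 0.000786) was -2.31 against CA1, -1.05 against CA2 and -0.17 against DG, and was not called without mouse 492 (-1.12, adjusted p = 0.120).

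A CA3 difference called in dendrites alone was found in 34 genes, 13 with a positive and 21 with a negative compartment difference. Gad2, the smaller glutamate decarboxylase, read 14.82, 14.64 and 14.32 in CA3 dendrites, above all 9 others at 12.29, 13.66 and 14.27, and 11.37, 11.57 and 11.17 in CA3 cell bodies, within 10.60 to 11.96. Its compartment difference was 1.15 ± 0.20 (adjusted p = 0.00119), and 1.10 without mouse 492, where it was not called (adjusted p = 0.114). Syt6, a synaptotagmin, was above all 9 other dendritic libraries as well, at 11.03, 11.51 and 11.07 against 7.34 to 10.71, with 2.76 ± 0.56 (adjusted p = 0.00712). That call was lost without any 1 of the mice, and its estimates with 1 sample or mouse left out ran from 2.10 to 3.31. Dio2, the deiodinase that activates thyroid hormone in glia, lay below all 9 others in CA3 dendrites at 12.13, 12.29 and 12.22 against 12.60 to 14.18, with -1.36 ± 0.22 (adjusted p = 0.000786). It was -0.06 against CA2, so that the difference was one from CA1 and DG, and the call was lost without mouse 492 (-1.27) or 496 (-1.27). Glul (glutamine synthetase), Slc2a1 (the glucose transporter of the blood-brain barrier), Wwtr1 (the transcriptional coactivator TAZ) and Slc44a2 (a choline transporter-like protein) were likewise below all 9 other dendritic libraries. Their compartment differences were -0.87 ± 0.17, -1.09 ± 0.26, -1.46 ± 0.31 and -1.98 ± 0.42. Each of these 4 lost its call under at least 4 of the 39 alternatives, Slc2a1 under 14. Htr1f, a serotonin receptor, was listed at 0 in all 3 CA3 dendritic libraries and read 8.32, 8.37 and 8.03 in CA3 cell bodies. In the other dendrites it ran from 0 to 8.01, and no fold is given.

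**Figure D3:**
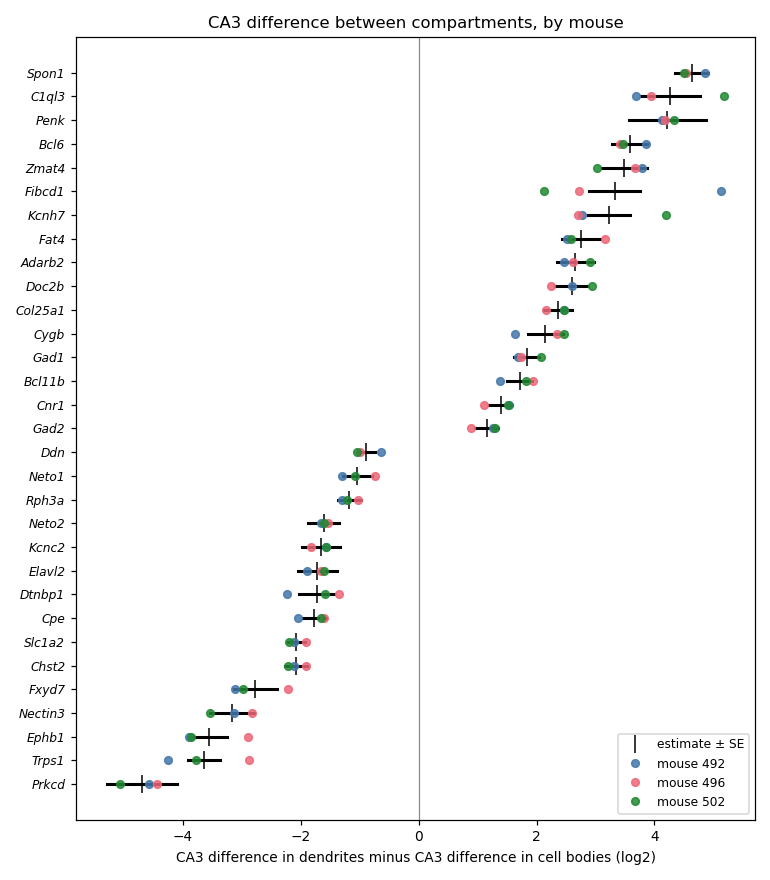
Compartment difference of the CA3 effect (x axis, log2) for 31 genes, 1 per line, with 1 point per mouse and the limma estimate with its SE. Within a gene the 3 mice fall on the same side of 0, as in all 430 called genes from which these were picked, so this is no separate result. The spread between mice is wide for Fibcd1, whose mice run from 2.13 to 5.13.

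Of the 8 CA3 pyramidal markers, 2 were called lower and none higher, with a median compartment difference of -1.35. Nectin3, an adhesion protein, had -3.17 ± 0.37 (adjusted p = 1.44e-05), from an excess of 3.62 in cell bodies to 0.45 in dendrites. Elavl2, a neuronal RNA-binding protein, had -1.72 ± 0.33 (adjusted p = 0.00454), a call lost without mouse 492 (-1.63, adjusted p = 0.158). The others did not pass: Bok had -0.99 ± 0.41 (adjusted p = 0.319), Grik4 -0.72 ± 0.32 (0.377), Cpne4 -1.35 ± 0.54 (0.297), Coch -1.35 ± 0.74 (0.526), Iyd -2.79 ± 1.72 (0.600) and St18 0.02 ± 0.71 (0.996). Bok, a member of the Bcl-2 family, and Grik4, a kainate receptor subunit, stayed above all 9 other libraries in dendrites, Bok at 11.83, 12.01 and 11.37 against 7.23 to 9.86 and Grik4 at 11.83, 12.03 and 11.45 against 9.40 to 10.96.

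Among markers of the other subregions, 3 of 9 CA1, 2 of 12 CA2 and 2 of 12 DG markers were called higher, and 1 DG marker, Sema5b, was called lower. Positive estimates were found in 8 of 9, 9 of 12 and 8 of 12, with medians of 1.49, 1.04 and 0.58, and the DG median was -0.10 in mouse 492. The CA1 markers were Fibcd1 (3.33 ± 0.43), Gpr161 (3.06 ± 0.51) and Nov (2.29 ± 0.49), the CA2 markers Cacng5 (3.81 ± 0.57) and Rgs14 (1.37 ± 0.29), and the DG markers C1ql2 (4.10 ± 1.07) and Dock10 (1.68 ± 0.30). C1ql2 lost its call under 27 of the 39 alternatives, Sema5b under 11, Nov and Rgs14 under 6 each and Gpr161 and Dock10 without mouse 496. In cell bodies 8 of the 9 CA1 markers were lower in CA3 and in dendrites 6 were. Sema5b, a semaphorin, was listed for DG but stood highest in CA3 cell bodies, at 10.81, 10.95 and 10.92 against 2.53 to 9.08. None of the 4 mossy cell markers was called by limma, 0 had an unadjusted p under 0.05, and their median was 0.19.

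Of the 14 interneuron markers, 6 were higher and none lower in CA3 dendrites, while in cell bodies 2 were higher and 1 lower. The compartment difference was called higher for Gad1 and Gad2 and lower for Kcnc2, 10 of the 14 estimates were positive, and the median was 0.71. Kcnc2, a potassium channel of fast-spiking neurons, stood apart from the list in cell bodies, where CA3 read 13.29, 13.08 and 13.36 against 7.98 to 11.89. It was high in both CA3 layers, by 2.70 and 1.04, and its compartment difference was -1.66 ± 0.33 (adjusted p = 0.00558), lost without any 1 of the mice. Values for members that did not pass were 1.16 ± 0.32 for Slc32a1, the vesicular GABA transporter (adjusted p = 0.0658), 1.27 ± 0.43 for the peptide gene Npy (0.166), 0.72 ± 0.38 for Sst (0.511), 0.81 ± 0.56 for Pvalb (0.659) and -0.13 ± 0.25 for Cck (0.912).

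None of 14 astrocyte, 13 oligodendrocyte or 11 endothelial markers had a positive estimate, and their medians were -0.62, -0.90 and -1.09, against -0.08 over all genes. Calls were 2 of 14 (Slc1a2 and Glul), 4 of 13 (Cnp, Mal and Sox10 among them) and 1 of 11 (Slc2a1), all lower. Of 7 markers of oligodendrocyte precursors, Pdgfra (-2.13 ± 0.38, adjusted p = 0.00211) and Cspg4 (-1.81 ± 0.47, adjusted p = 0.0475) were lower, with a list median of -0.95. The oligodendrocyte shift came from cell bodies, where 11 of the 13 markers were higher in CA3 and their summed level was 45082 to 56407 against 12624 to 50366 elsewhere. In dendrites the CA3 differences of the 13 ran from -0.22 to 0.85 on the log2 scale, 0 were called by limma (adjusted p), 3 had an unadjusted p under 0.05, and the sums were 219846 to 252029 against 123293 to 251154. Over all genes tested 3511 of 24911 had an unadjusted p under 0.05 for the CA3 difference in dendrites. The endothelial sums were 3640 to 6644 in CA3 cell bodies against 2201 to 7869, and 18083 to 26600 in CA3 dendrites against 26378 to 41492. The mean log2 value of the 13 oligodendrocyte markers was 10.15, 10.44 and 10.10 in CA3 cell bodies of mice 492, 496 and 502. It was 10.39, 10.07 and 9.68 in CA2 cell bodies, 8.34 to 8.60 in CA1 and 8.29 to 9.19 in DG. Thus the myelin genes differed in the cell body layer, where CA3 shared its high level with CA2 and stood above CA1 and DG. In the CA3 dendritic layer the endothelial sums were at the low end of an overlapping range, which was not particular to them. The mural and meningeal sums there were 20130 to 22585 against 23378 to 38315 in the other dendrites. The microglial sums were 24885 to 31404 against 26724 to 58073. The calls of Cnp, Mal and Sox10 were lost after scaling to totals, and those of Cspg4 and Sox10 under 25 and 23 of the 39 alternatives. No microglial (12), mural and meningeal (10) or choroid and ependymal (8) marker was called by limma, with medians of -0.30, -0.57 and 0.20, and 2, 3 and 1 of them had an unadjusted p under 0.05. After scaling to totals the astrocyte, oligodendrocyte and endothelial medians were -0.30, -0.59 and -0.78, against a median of all genes that moved by 0.29, and 1, 0 and 0 of their markers were called by limma (adjusted p). The microglial median was 0.01 after scaling to totals, and the choroid one was -0.33 without the 4 libraries that have a repeat.

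**Figure D4:**
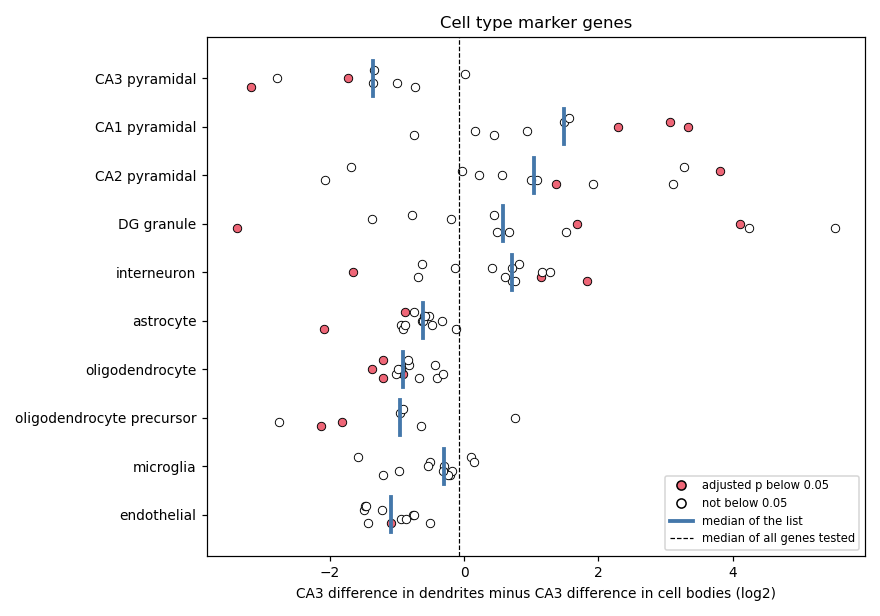
Compartment difference of the CA3 effect (log2) for each tested member of 10 lists of cell type markers, with a bar at the median of each list. CA3, astrocyte, oligodendrocyte and endothelial markers lie mostly below 0, with medians of -1.35, -0.62, -0.90 and -1.09, and CA1 and interneuron markers mostly above, with medians of 1.49 and 0.71.

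Receptor genes were read against the 1.73% of all genes that were called and the overall median of -0.08. Of 13 AMPA, NMDA and delta receptor genes, 2 were called higher and none lower, 12 had a positive estimate, and the median was 0.36. Gria1, the AMPA receptor subunit GluA1, read 15.26, 15.16 and 15.26 in CA3 cell bodies, within 15.03 to 16.11, and 14.56, 14.69 and 14.13 in CA3 dendrites, within 13.20 to 14.98. Its compartment difference was 0.78 ± 0.19 (adjusted p = 0.0331), and the other called gene, the NMDA receptor subunit Grin3a, had 1.37 ± 0.29 (adjusted p = 0.0109). Both calls ended without the 4 columns that have a repeat, and Gria1 also without the trended and robust estimate, while quantile normalization gave 5 higher. Of 12 GABA-A receptor genes, 4 were called higher and none lower, with a list median of 0.56, and the called genes included Gabrd (2.49 ± 0.61) and Gabra3 (1.78 ± 0.46). The CA3 difference in cell bodies was -3.82 for Gabrd and -1.80 for Gabra3. None of the 12 was called with no filter on low values or without the trended and robust estimate, and 1 was called without the 4 columns that have a repeat. Quantile normalization gave 6 higher, scaling to totals 7, and leaving out the high-total pair 6.

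Kainate receptors are known in CA3 for their place at mossy fibre synapses. Of 7 kainate receptor and Neto genes, 2 were called lower and 1 higher, with a median of -0.55. Neto1 and Neto2, auxiliary subunits of kainate receptors, were in excess by 2.53 and 2.54 in CA3 cell bodies and by 1.49 and 0.93 in dendrites, so their compartment differences were -1.04 ± 0.25 and -1.61 ± 0.26 (adjusted p = 0.0252 and 0.000800). Grik3, the GluK3 subunit, was higher by 1.49 ± 0.39 (adjusted p = 0.0462). Against DG, where its cell body values of 11.47 to 11.56 were the highest, it was 3.62, and against CA1 it was 0.04. Grik3 lost its call under 27 of the 39 alternatives, Neto1 without any 1 of the mice and Neto2 without mouse 492. Of 7 metabotropic receptors only Grm7 was called, at -1.98 ± 0.43 (adjusted p = 0.0125), and not without any 1 of the mice.

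Among 18 neurexins, neuroligins and their synaptic partners, C1ql2 and C1ql3 were called higher and Nptx1 lower, with a median of 0.47. Nptx1, a pentraxin that gathers AMPA receptors, went from an excess of 2.23 in CA3 cell bodies to 0.97 in dendrites (-1.25 ± 0.26, adjusted p = 0.00715). Of 30 genes of synaptic vesicles and release, 18 were higher in CA3 cell bodies and 12 higher in CA3 dendrites, and the compartment difference was called higher for Doc2b and lower for Rph3a, Sv2b and Bsn. Sv2b, a vesicle glycoprotein, had -1.99 ± 0.33 (adjusted p = 0.000980), nearly all of it from DG (-5.19), with 0.58 against CA2. Bsn, the presynaptic scaffold bassoon, had -0.71 ± 0.16 (adjusted p = 0.0208) and stayed in excess in dendrites by 0.99 ± 0.12. The other 26 had no called compartment difference. The list median of -0.25 became 0.07 after scaling to totals.

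Of 45 axon guidance genes 2 were called higher and 4 lower, and 23 had an unadjusted p under 0.05. Library weights gave 2 higher and 9 lower. Over all genes tested 1.73% were called, 0.747% higher and 0.979% lower, and 2855 of 24911 had an unadjusted p under 0.05. Efnb3, an ephrin ligand, had 1.82 ± 0.28 (adjusted p = 0.000451), Ephb1, given above, is a receptor for such ligands, and Unc5c, a netrin receptor, had -1.52 ± 0.27 (adjusted p = 0.00211). Efnb3 read 8.46, 8.98 and 9.30 in CA3 cell bodies and 10.50, 10.81 and 10.43 in CA3 dendrites, overlapping the others in both layers. Of 25 cadherins and protocadherins 3 were called: Pcdh17 was higher by 1.15 ± 0.23, and Cdh9 and Pcdh7 were lower, at -2.52 ± 0.46 and -1.78 ± 0.26. Of 31 voltage-gated potassium channels, Kcnh7 was higher and Kcnc2 lower, and of 26 sodium and calcium channels none was called by limma, with 5 at an unadjusted p under 0.05. The medians of these 4 lists were -0.17, -0.21, -0.27 and 0.11, and after scaling to totals 0.14, 0.10, 0.04 and 0.42. Efnb3 and Pcdh7 lost their calls without mouse 492, Unc5c without mouse 492 or 496, Cdh9 without mouse 492 or 502, and Pcdh17 without mouse 492 or 496.

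Of 18 mRNAs known from dendrites, 3 were called lower and none higher: Ddn, Psd and Camk2a. The direction depended on the scaling: quantile normalization gave 2 higher and 1 lower, and scaling to totals gave 0 in either direction (limma, adjusted p). Camk2a, a kinase subunit whose mRNA is abundant in dendrites, read 17.27, 17.24 and 17.12 in CA3 cell bodies against 16.23 to 17.12 and 19.48, 19.45 and 18.87 in CA3 dendrites against 18.63 to 20.00. It was thus at the top in cell bodies and mid-range in dendrites, with -0.62 ± 0.14 (adjusted p = 0.0125). The call was lost after quantile normalization (-0.30), after scaling to totals (-0.31) and without any 1 of the mice. Psd, an exchange factor for Arf6 in dendritic spines, had -0.90 ± 0.16 (adjusted p = 0.00257), lost after scaling to totals and without any 1 of the mice. Psd was also the only call among 26 postsynaptic scaffold genes. The medians of these lists, -0.29 and -0.31, were 0.03 and 0.00 after scaling to totals.

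The 5 lists of widely expressed or activity-driven genes gave 1 call in all. None of 37 nuclear genes of respiratory complex I, 31 proteasome genes, 79 cytosolic ribosomal protein genes or 16 immediate early genes passed the limma test, and 0, 2, 8 and 2 had an unadjusted p under 0.05. Over all genes tested 2855 of 24911 had such a p. The medians were -0.15, -0.06, -0.41 and -0.34, and 1 of the 79 ribosomal estimates was positive. In mice 492, 496 and 502 the medians were -0.72, 0.12 and 0.01 for complex I and -0.38, 0.007 and 0.005 for the proteasome. They were -0.90, -0.06 and -0.23 for ribosomal proteins and -0.33, -0.40 and -0.11 for immediate early genes. The first 3 lists were thus lowest in mouse 492. Ribosomal protein genes have many close copies, so their reads may have been split. The 13 mRNAs of the mitochondrial genome had a median of -0.47 and mt-Co3, a subunit of cytochrome oxidase, was lower at -0.84 ± 0.19 (adjusted p = 0.0137), but after quantile normalization its estimate was 0.19 and the list median 0.00. With the block by contrast 5 of the 13 were called lower. The proteasome median was 0.08 after quantile normalization and 0.25 after scaling to totals, and that of complex I was 0.16 after scaling to totals.

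Transcripts of a gene did not always share its compartment difference. Of 10025 genes with at least 2 tested transcripts, 19 (0.19%) were called for unequal change (limma diffSplice, Simes p adjusted by Benjamini-Hochberg), and 894 had an unadjusted p under 0.05. In Rab8a, a small GTPase of vesicle traffic, transcript ENSMUST00000128203.1 read 0.39, 0.07 and 0.51 on the log2 scale in CA3 dendrites, and its group means elsewhere were between 5.74 and 7.56. The main transcript, ENSMUST00000003121.8, read 10.00, 10.53 and 10.00 there and showed no such drop. The compartment difference of ENSMUST00000128203.1 was -6.12 relative to it, and the adjusted Simes p of the gene was 0.000415 (limma diffSplice). In Pak3, a kinase of dendritic spines, ENSMUST00000134402.7 read 0.76, 2.35 and 0.95 in CA3 dendrites against 1.73 to 8.60 in the other 9 dendritic libraries. The CA1 library of mouse 492 overlapped CA3. Its compartment difference was -5.27 against its sister transcripts, and the adjusted Simes p of the gene was 0.00193 (limma diffSplice). In Usf2, a transcription factor, ENSMUST00000162228.8 was high in CA3 dendrites, at 9.17, 7.60 and 4.52 against 0.93 to 3.00 in the other 9, with 7.61 against the others. In Vegfa, the vascular growth factor, ENSMUST00000133605.7 read 9.22, 8.29 and 7.36 there, with 8.19 against the others. The other 9 dendritic libraries read 0.21 to 7.60, and the CA2 library of mouse 496 overlapped CA3. Each of the 4 is less abundant than another transcript of its gene by its mean over libraries, and values near 0 rest on little signal.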

How the data were processed

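RNA-seq libraries of 8 laser-captured hippocampal layers from 3 mice were compared. The deposited gene values are log2 values that the authors made from Salmon read estimates with a median normalization, per the file headers. The deposited transcript values are on the same log2 scale. Per the submitters' processing notes, the genome build was mm10, and the tools named, with no role or order, include Salmon 0.9.1 and STAR 2.5.1b for reads and DESeq2 1.18.1 and limma 3.32.2 for statistics. These estimates carry no whole counts, which is why counting intervals are missing here, and close copies of a gene may have divided its reads. Counting by strand is not stated.

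Genes with at least log2(10) in at least 3 libraries were fitted in limma 3.58.1 (R 4.3.3, statmod 1.5.0) with 8 groups and mouse as a block, a trended and robust spread shared by all 24 libraries, and 14 residual degrees of freedom. P-values are two-sided, adjusted by Benjamini-Hochberg over the 24911 genes tested, and called below 0.05. The fit was also run on simulated data in which each gene had the same spread in all groups, which does not test unequal spread between layers. Transcripts (34762 of 10025 genes) were tested with diffSplice and Simes p-values. Standard errors are those of limma. Because the spread is pooled, a gene has the same SE for its CA3 difference in cell bodies and in dendrites, and these SEs do not show which layer varied more. P-values rest on the spread of libraries within a group after the mouse block, pooled over the 8 groups and moderated over genes.

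The block was used because same-numbered libraries come from the same animal. The deviations of same-mouse libraries from their group means had a median correlation of 0.02 over 84 pairs (-0.05 to 0.07), against -0.01 between different mice. Without the block 377 genes were called, of which 373 were among the 430.

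Named genes were, in each direction, the 12 with the largest estimates among called genes with 1 sign in all mice and against each subregion, a group mean of at least log2(100) and no clone-like name. Added were the 4 with the smallest adjusted p per class, the 3 per list, every CA3 marker and 6 genes of the transcript test. The members and the 30 gene lists were chosen with earlier results of these data known. Alternatives covered normalization, pseudocount, filters, the block, the spread, library weights and samples left out. Another 12 columns, of a microarray table, match no sequenced library and were not used. Gene positions are those of RefSeq on GRCm38.p6, the assembly that mm10 denotes, where 91 of 92 symbols matched. Upstream windows come from RefSeq and untranslated regions from GENCODE on the same build. Results for some genes of the lists are not reported here.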

Additional observations from a re-analysis of the deposited data

Results flagged for a closer look

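The CA3 difference had opposite signs in the cell body and the dendritic layer, each past the limma threshold, and the difference between the layers was itself tested and called, in 7 genes. For the genes low in CA3 cell bodies and high in CA3 dendrites it was 2.66 for Adarb2, 2.36 for Col25a1, 2.17 for AI504432, 2.15 for Cygb and 1.83 for Gad1 on the log2 scale. For the genes high in cell bodies and low in dendrites it was -2.08 for Slc1a2 and -1.73 for Dtnbp1. High and low here are against the mean of the other subregions. Without the high-total pair of CA1 dendritic libraries the values were 2.78 for Adarb2, 2.48 for Col25a1, 2.30 for Cygb, 1.97 for Gad1, -2.06 for Slc1a2 and -1.76 for Dtnbp1. Without the 4 dendritic columns with a repeat they were 2.73, 2.36, 1.99, 1.81, -2.04 and -1.87 in the same order. These differences were called in both. Both layers stayed called with opposite signs for all 7 genes without the high-total pair, but for Gad1 and Col25a1 alone without the 4 columns with a repeat, where the dendritic difference of the other 5 had an adjusted p (limma) from 0.0547 to 0.170.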

How the results depend on the processing

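The count of 430 compartment differences was between 304 and 631 under the 10 settings that kept all libraries, 579 without the high-total pair of CA1 dendritic libraries (mice 492 and 496) and 331 without the 4 libraries that have a repeat. With a sample or mouse left out it ran from 115 to 556. The block by contrast, fitted per mouse, called 377. The cause of these moves was not tested, beyond the loss of samples that leaving out a mouse brings.

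The 537 calls of CA3 dendrites became 1023 after quantile normalization, 895 after scaling to totals, 949 with totals outside the mitochondrial genome, 65 with the replicate block by contrast, 288 without the trended and robust spread, 256 with library weights, 927 without the CA1 dendritic pair and 227 without the libraries with a repeat, and 140 to 778 with 1 sample or mouse left out. The 1753 calls in cell bodies became 3423 with the block by contrast and 4908 with library weights, and 907 to 1982 on leaving out. Against CA1, 1031 calls became 641 after quantile normalization, 408 with the block by contrast, 563 without the trended and robust spread and 460 without the CA1 dendritic pair, and 228 to 1980 on leaving out. Against CA2, 348 became 125 with the block by contrast, 164 without the trended and robust spread, 581 without the CA1 dendritic pair and 109 without the libraries with a repeat, and 73 to 454 on leaving out. Against DG, 994 became 1584 with the block by contrast and 1576 with library weights, and 384 to 1182 on leaving out. The class called in cell bodies alone held 97 to 388 genes on leaving out.

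The 19 genes with unequal change of transcripts became 3 at a mean of at least log2(100), 48 without the CA1 dendritic pair and 32 without the libraries with a repeat, and 9 to 18 on leaving out. The estimate for mt-Co3 turned positive, to 0.19, after quantile normalization, and no other called named gene changed sign. With 3 mice and 1 ng of input per dendritic library, low genes there are read from few molecules, and a missed call is not an absent difference.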
